A study of Mus musculus with 11 samples.

Results

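Collagens are the main structural proteins of the extracellular matrix, and each is built from alpha chains that wind around one another into a long helix. The 44 genes described here are the protein-coding genes of the mouse annotation (GENCODE vM21, 21938 protein-coding genes) whose symbol has the form Col, a number, a and a number. The measurement was chromatin accessibility at these genes in MPC2 cells, taken by ATAC-seq, in which the transposase Tn5 cuts DNA where it is not covered by nucleosomes. Each accessible region that overlapped the stretch from 20 kb upstream of a gene to its end was assigned to that gene, which gave 386 regions out of 94963.

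MPC2 is a clone of conditionally immortalised mouse mesenchymal progenitor cells, so all cultures derive from 1 line. The study compared 4 groups, undifferentiated cells (MSCs) with DMSO vehicle (3 cultures), MSCs with FG-4592 (3 cultures), osteocytes with vehicle (2 cultures) and osteocytes with FG-4592 (3 cultures). Osteocytes had spent 3 weeks in osteogenic medium, and FG-4592 (Roxadustat, an inhibitor of the prolyl hydroxylases that mark HIF for degradation) was present at 50 uM for 48 hours. The labels named no genetic change in any of the 4 groups. The deposited list pooled the 11 cultures, with 1 value per region, read as the average log2 CPM, where CPM is the cut count of a region scaled to the size of its library. No difference between MSCs and osteocytes, or between drug and vehicle, could be measured from it, and no value below has a replicate error. The depth per culture was unknown. A missing region means only that the pooled list held none there.

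Fibrillar collagens (types I, III, V, XXIV and XXVII here) form the fibrils of bone, skin and tendon, and type I, made from the chains of Col1a1 and Col1a2, is the chief protein of bone matrix. Network collagens form sheets, with type IV in basement membranes and type VIII beneath endothelia and in the eye. Types II, IX, X and XI are the collagens of cartilage, and type X is made by hypertrophic chondrocytes. The 3 classes were set side by side, with 8 fibrillar, 8 network and 7 cartilage genes. The remaining 21 genes are described after them.

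The sequences below are shown because they are the accessible sites of highest level per kb away from any transcript start in the type I genes and in the leading gene of each class, together with the broad upstream site of Col1a2, the gap between the paired genes Col4a4 and Col4a3, and the stretch before the start of Col10a1, where no region was found. They were read from the plus strand of GRCm38 (the mm10 build), except that the Col10a1 bases and the short Col1a2 site came from RefSeq promoters of GRCm38.p6. Capitals mark an AP-1 site (TGAGTCA or TGACTCA), a RUNX site (TGTGGT) or a CCAAT box (CCAAT), searched on both strands. The AP-1, RUNX and CCAAT letters were searched only in the sequences of the kind to which they apply, AP-1 and RUNX in sites away from starts and CCAAT at starts.
Col1a1, 19.6 kb upstream (chr11:94916528-94916727): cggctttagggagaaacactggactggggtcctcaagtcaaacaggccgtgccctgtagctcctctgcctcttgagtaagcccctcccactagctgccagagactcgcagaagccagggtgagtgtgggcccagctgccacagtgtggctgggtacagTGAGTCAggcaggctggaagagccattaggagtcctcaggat
Col1a2, intron 1 (chr6:4507439-4507638): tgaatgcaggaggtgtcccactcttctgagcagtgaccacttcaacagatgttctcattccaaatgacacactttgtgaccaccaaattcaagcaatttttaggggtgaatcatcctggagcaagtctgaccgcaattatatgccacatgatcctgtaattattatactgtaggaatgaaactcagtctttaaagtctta
Col1a2, 15.6 kb upstream (chr6:4489106-4489305): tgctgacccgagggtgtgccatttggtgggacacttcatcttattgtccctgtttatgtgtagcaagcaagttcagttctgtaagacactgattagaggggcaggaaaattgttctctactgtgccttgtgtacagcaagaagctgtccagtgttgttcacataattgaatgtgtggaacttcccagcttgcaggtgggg
Col1a2, CCAAT box before the RefSeq start (chr6:4505497-4505525): aaaagaatggaaCCAATttaagaagcccc
Col27a1, intron 41 (chr4:63316191-63316390): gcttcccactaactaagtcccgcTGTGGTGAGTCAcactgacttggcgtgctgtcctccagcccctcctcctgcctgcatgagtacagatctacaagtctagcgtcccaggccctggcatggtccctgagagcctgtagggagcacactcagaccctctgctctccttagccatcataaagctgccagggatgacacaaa
Col8a1, intron 2 (chr16:57644190-57644389): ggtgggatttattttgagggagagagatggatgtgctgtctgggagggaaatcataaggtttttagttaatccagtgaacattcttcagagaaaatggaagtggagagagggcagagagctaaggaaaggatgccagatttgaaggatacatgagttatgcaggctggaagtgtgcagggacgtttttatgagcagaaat
Col4a4 to Col4a3, bases between the 5′ ends (chr1:82586850-82586920): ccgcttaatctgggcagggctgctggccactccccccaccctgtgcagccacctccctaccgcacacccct
Col9a3, 18.9 kb upstream (chr2:180578794-180578993): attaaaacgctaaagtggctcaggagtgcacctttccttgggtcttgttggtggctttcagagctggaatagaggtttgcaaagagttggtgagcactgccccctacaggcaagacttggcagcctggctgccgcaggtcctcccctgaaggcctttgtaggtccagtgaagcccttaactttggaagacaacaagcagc
Col10a1, 250 bases before the start (chr10:34389731-34389980): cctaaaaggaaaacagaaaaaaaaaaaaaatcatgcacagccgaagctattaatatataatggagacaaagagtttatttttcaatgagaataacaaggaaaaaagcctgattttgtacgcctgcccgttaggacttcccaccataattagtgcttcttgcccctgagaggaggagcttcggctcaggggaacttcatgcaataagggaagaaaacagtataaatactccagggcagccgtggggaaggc

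Accessible regions were found at 43 of the 44 collagen genes, and Col10a1 was the exception. Over all protein-coding genes, 79.5% had a region in the same kind of window, and collagen genes are long (median 114388 bp against 17425 bp). These shares were not matched for gene length. The 386 regions had a median width of 451.5 bp and a median level of 2.28 log2 CPM, against 481 bp and 2.27 log2 CPM for regions in the same windows of all protein-coding genes, and 460 bp and 2.12 log2 CPM in the whole list. Because a wider region collects more cuts, levels are compared below per length, as log2 CPM per kb of region. On that scale the collagen regions had a median of 3.41, against 3.33 in the windows of all protein-coding genes and 3.25 in the whole list. Most sites lay inside the genes. Of 395 pairs of a gene and a region, 280 were centred in introns, 75 of them in intron 1, with 79 upstream of the gene, 25 in exons, 10 in the gene but before its main transcript (9 at Col18a1 and 1 at Col25a1) and 1 just past the end of Col6a1.

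Fibrillar genes were the most densely covered of the 3 classes. They had a median of 13.5 regions per 100 kb of window (range 3.94 to 32.6), network genes had 7.99 (0.855 to 15.9) and cartilage genes 5.57 (0 to 13.5), beside 5.88 over all protein-coding genes and 7.59 over all collagen genes. The ranges of the 3 classes overlapped. In summed accessibility the fibrillar median was 12.3 CPM per 10 kb (2.42 to 46.4), the network median 4.31 (0.580 to 16.1) and the cartilage median 3.72 (0 to 34.2), with 6.69 over all protein-coding genes. In this window the fibrillar class thus lay above the coding median by both measures, and the network and cartilage classes lay below it in summed accessibility. With 50 kb upstream, the fibrillar, network and cartilage medians were 10.6, 7.44 and 10.4 CPM per 10 kb. The coding median was not recomputed for that wider window. The highest region of each gene had class medians of 4.75, 3.95 and 3.82 log2 CPM per kb in the same order, against 4.79 over all protein-coding genes with a region. Genes of a class are not replicates, and the classes were not tested against each other.

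**Figure D1:**
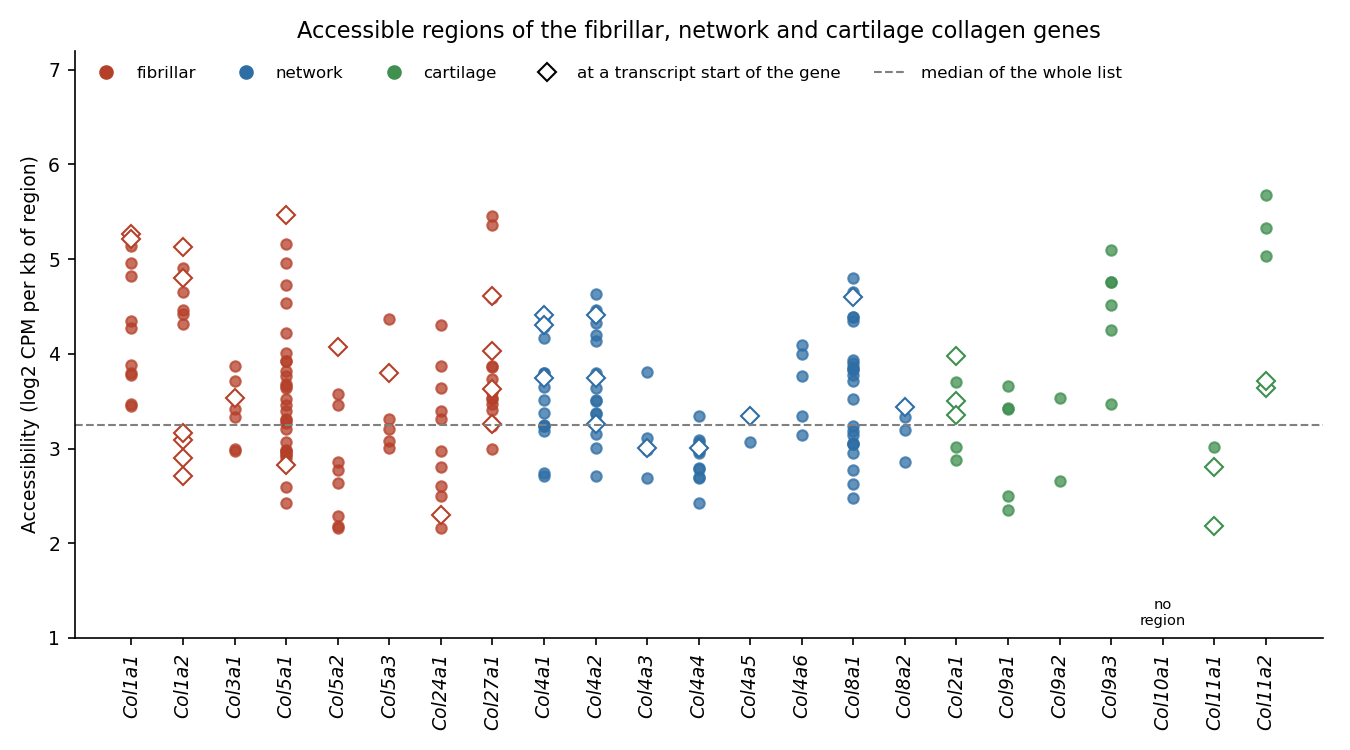
Accessibility of every region (log2 CPM per kb of region, vertical axis) at each fibrillar, network and cartilage collagen gene (horizontal axis), with open diamonds for regions within 1000 bp of an annotated transcript start of the gene and a dashed line at the median of the whole list, 3.25. The fibrillar genes hold the most points, 108, and Col10a1 has none.

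Col1a1, which encodes the alpha 1 chain of type I collagen, had the densest cover of the 44 genes. The gene is 16.8 kb long (chr11:94936224-94953042, plus strand) and had 12 regions, more than 99.9% of the 2408 protein-coding genes whose length was within 20% of its own and whose median was 3. Within chromosome 11 alone, where regions are dense (58.5 per Mb against 37.9 over the autosomes), it still had more than 99.5% of 206 genes of similar length. Its regions amounted to 46.4 CPM per 10 kb, also the highest of the family. Of the 12 regions, 6 lay wholly upstream of the gene and 6 overlapped it.

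The region at the start of Col1a1 (chr11:94935933-94936462) reached from 291 bases before the 5′ end to 238 bases after it and stood at 5.26 log2 CPM per kb, the highest of the gene, above 95.3% of all regions. A neighbour of nearly the same level, 5.22 log2 CPM per kb, lay in intron 1 (chr11:94936744-94937566). Upstream, regions followed at 1.58, 2.44, 7.70, 15.0, 18.3 and 19.6 kb. The broadest of these, at 7.70 kb (chr11:94927747-94929292), was 1546 bp wide and had 5.46 log2 CPM, the highest undivided level of the gene. The most distant, at 19.6 kb (chr11:94916348-94916908), stood at 5.14 log2 CPM per kb, and its sequence above holds an AP-1 site. The regions inside the gene beyond intron 1 were lower, between 3.45 and 3.88 log2 CPM per kb.

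Col1a2, which encodes the partner chain, is 36.7 kb long (chr6:4504814-4541544, plus strand) and held 11 regions, a number higher than in 97.3% of 2168 genes of like length. Its highest region per kb, at 5.13, covered exon 1 (chr6:4505089-4505934). The GENCODE 5′ end of Col1a2 lies 804 bases before the RefSeq start, and the region covered the whole stretch of 250 bases before the RefSeq start. The CCAAT box printed above begins 109 bases before that start and lies within this region. A run of accessible sites continued through intron 1, with regions at 1.57, 2.17 and 2.72 kb from the 5′ end and levels of 4.80, 4.65 and 4.90 log2 CPM per kb, and a further one in intron 2 at 4.31. The exon 1 region and those at 1.57 and 2.17 kb also lay within 1000 bp of a start of Gm43921, which is not protein-coding.

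Upstream of Col1a2 a broad region at 15.6 kb (chr6:4488100-4490312) was 2213 bp wide and had 5.57 log2 CPM, the highest undivided level of this gene, or 4.42 per kb. A far upstream enhancer is a known feature of Col1a2 in mouse fibroblasts, and the region is placed here by its distance only. The other upstream region, at 1.51 kb, was 259 bp wide. The 4 regions in the middle and later introns of the gene, from intron 16 to intron 35, were lower, between 2.71 and 3.16 log2 CPM per kb. Both type I genes thus had their highest sites at or close to the start, broad sites far upstream, and lower sites in the later gene body.

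**Figure D2:**
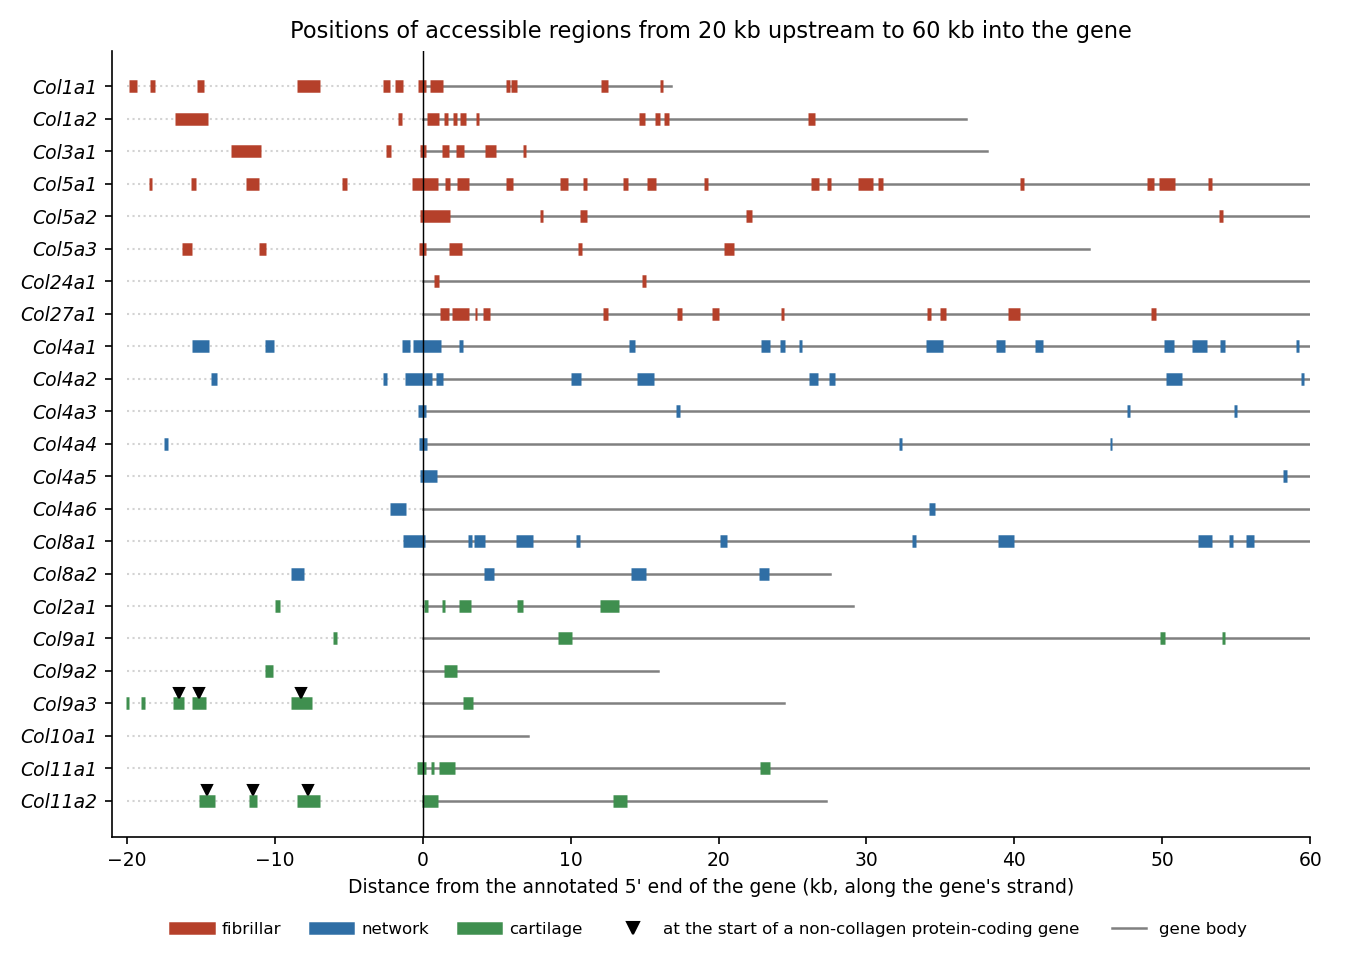
Positions of accessible regions from 20 kb before to 60 kb after the annotated 5′ end of each gene (kb, horizontal axis), drawn to scale as coloured bars by class, with grey lines for gene bodies and black triangles over regions at the start of a protein-coding gene outside the collagen family. The upstream regions of Col11a2 and 3 of the 5 upstream regions of Col9a3 carry triangles, whereas no fibrillar or network region does.

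Col5a1, the alpha 1 chain of type V collagen, which sits inside type I fibrils and governs their diameter, had the most regions of the family, 31 over a gene of 153.1 kb (chr2:27886425-28039514). This was more than 99.4% of 811 genes of similar length, whose median was 8. Its start region was 1808 bp wide, had 6.32 log2 CPM and stood at 5.46 per kb, and 12 of the 31 regions lay in intron 1. The start region also lay within 1000 bp of a start of 2810430I11Rik, which is not protein-coding. Col5a2, which encodes the alpha 2 chain, had 9 regions over 129.0 kb, more than 56.9% of similar genes, and its highest region was the 2063 bp wide one at the start, with 4.07 log2 CPM per kb. Col5a3 had 6 regions (more than 68.4% of similar genes), with its highest, 4.37, at 15.9 kb upstream.

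Col3a1, whose product is mixed into type I fibrils in elastic tissues, had 7 regions over 38.2 kb, more than 82.6% of 2161 similar genes. Its start region, also within 1000 bp of a start of the gene Gm47302, which is not protein-coding, stood at 3.54 log2 CPM per kb. The highest region of Col3a1, at 3.87, lay in intron 1, 4.59 kb from the start. An upstream region at 11.9 kb was 2013 bp wide with 4.01 log2 CPM. At this locus no region reached 4 per kb, in contrast to the type I genes, where 7 of 12 and 7 of 11 did.

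Col27a1 and Col24a1 encode fibrillar chains that are made during cartilage and bone development, and they differed from each other. Col27a1 had 21 regions over 121.0 kb, more than 96.4% of 1037 similar genes, with the highest collagen region away from any transcript start, 5.46 log2 CPM per kb in intron 41 (chr4:63315890-63316691, 102.3 kb from the 5′ end). In the sequence printed above, a RUNX and an AP-1 site share 1 base in this region. Another Col27a1 region in intron 37 was 1637 bp wide and had 6.07 log2 CPM, or 5.36 per kb. No region lay within 1000 bp of its GENCODE 5′ end, but the RefSeq start lies 1408 bases further on, and the 250 bases before it were covered in full. Col24a1 had 11 regions over 259.5 kb, more than 47.1% of 408 similar genes, and its start region was low, at 2.30 log2 CPM per kb, below all but 1.91% of the list.

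**Figure D3:**
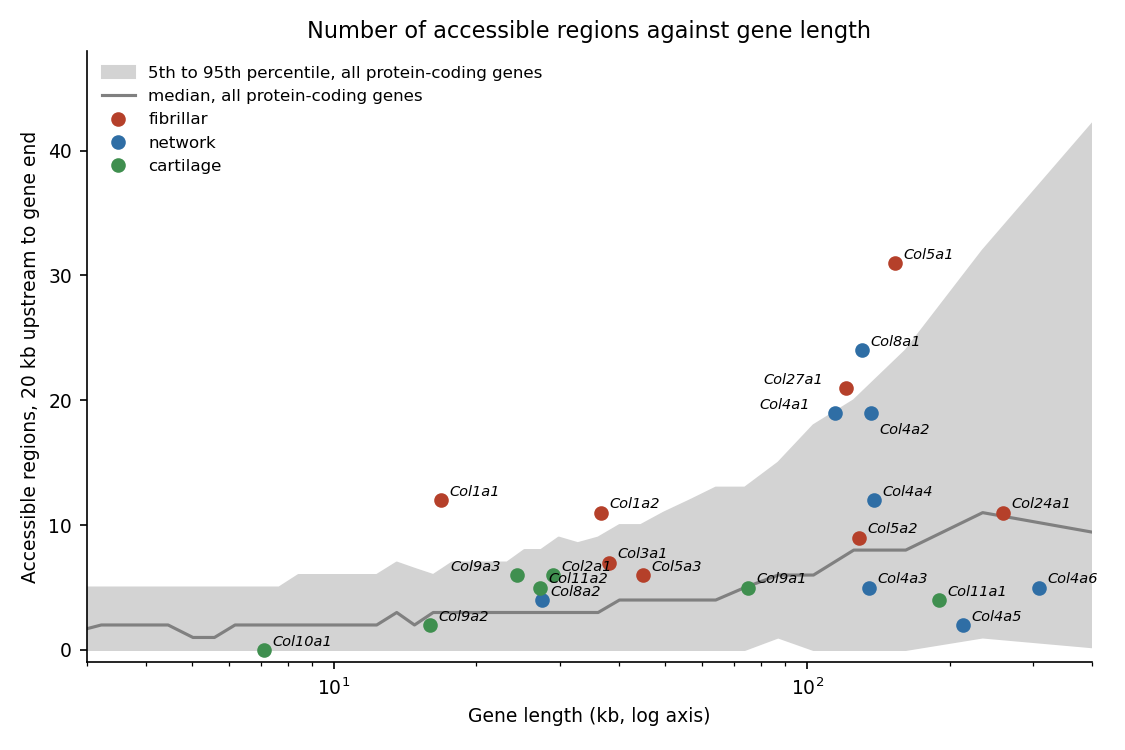
Number of regions from 20 kb upstream to the gene end (vertical axis) against gene length (kb, log axis) for the fibrillar, network and cartilage genes, over the median and the 5th to 95th percentiles of all protein-coding genes in 40 length bins. Col1a1, Col1a2, Col5a1, Col27a1 and Col8a1 lie above the grey band, and Col4a3, Col4a5, Col4a6, Col9a2, Col10a1 and Col11a1 are among the genes below the grey line.

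Among the network genes, Col4a1 and Col4a2, which encode the most widespread chains of basement membranes, had 19 regions each over 114.4 and 136.5 kb (more than 94.6% and 91.3% of similar genes). They are read in opposite directions from the same stretch of chromosome 8. A region of 1843 bp (chr8:11311621-11313463) covered both 5′ ends with 5.30 log2 CPM, or 4.41 per kb. Of the regions at these genes, 6 fell in the windows of both, so that their counts are not independent. The others in both windows lay in introns of 1 gene of the pair and upstream of its partner, 3 in intron 3 of Col4a2 and 2 in intron 1 of Col4a1. Those in Col4a2 stood at 3.75 (chr8:11313678-11314198), 3.38 (chr8:11322864-11323508) and 3.80 log2 CPM per kb (chr8:11327285-11328433), and those in Col4a1 at 4.32 (chr8:11310107-11310399) and 2.71 (chr8:11298493-11298908). The highest of Col4a2 per kb was another region, at 4.64.

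The remaining type IV genes also come in opposed pairs and were lower. Col4a3 and Col4a4, whose chains form the basement membrane of the kidney glomerulus, shared a region of 531 bp (chr1:82586581-82587111) that spanned the 71 bases between their 5′ ends printed above and stood at 3.00 log2 CPM per kb, below the median of the list. A region of 240 bp in intron 1 of Col4a3 (chr1:82604079-82604318), at 2.68 log2 CPM per kb, also fell in both windows. Col4a3 had 5 regions and Col4a4 12, more than 33.8% and 70.0% of similar genes, with highest regions of 3.81 and 3.34. Col4a5 and Col4a6 lie on the X chromosome, where regions were sparse (9.08 per Mb), and had 2 and 5 regions over 213.9 and 308.7 kb, with highest regions of 3.35 and 4.09. Compared within the X chromosome, Col4a5 had more than 45.5% of 22 genes of similar length and Col4a6 more than 52.9% of 17. The region at their shared end (chrX:141475211-141476319) covered the 5′ end of Col4a5 and lay 1.69 kb before that of Col4a6. It was the only region that fell in both windows.

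Col8a1, which encodes a short chain network collagen, had the most regions of the network class, 24 over 130.5 kb (chr16:57624258-57754737), more than 98.5% of 964 similar genes. Chromosome 16 held 59.6 regions per Mb, the densest of the list, and among 39 similar genes of that chromosome the share with fewer was 92.3%. The start region was 1484 bp wide and stood at 4.60 log2 CPM per kb. A total of 11 regions lay in intron 1, and the highest, at 4.80, lay in intron 2 (chr16:57643807-57644773), 110.4 kb from the start. Its partner Col8a2 had 4 regions over 27.5 kb, with the highest at 3.44 and none within 1000 bp of the 5′ end.

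The cartilage genes had 0 to 6 regions each. Col2a1, the chain of type II collagen, had 6 regions over 29.1 kb (chr15:97975602-98004695), more than 79.7% of 2449 similar genes. A region of 245 bp from 89 to 333 bases after the 5′ end stood at 3.50 log2 CPM per kb, and a region of 817 bp in intron 1, 2.84 kb from the start (chr15:98001451-98002267), stood at 3.35. A second region in intron 1, 1.41 kb from the start (chr15:98003187-98003386), was 200 bp wide and stood at 3.70. Intron 1 of Col2a1 is known to hold an enhancer bound by SOX9 in chondrocytes. The 817 bp region held no SOX letters (AACAAT, both strands), but whether either region is that enhancer was not tested. The highest region of Col2a1 lay in intron 16, at 3.98 log2 CPM per kb, and was 1259 bp wide.

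Col11a1 and Col11a2 encode chains of type XI collagen, which copolymerises with type II. Col11a1 had 4 regions over 190.2 kb, more than 24.1% of similar genes, none above 3.01 log2 CPM per kb, and its start region stood at 2.81. Col11a2 had 5 regions and the largest summed accessibility of the class, 34.2 CPM per 10 kb. Of that sum 84.2% came from 3 upstream regions at the starts of Ring1, H2-Ke6, Rxrb and Slc39a7. Without those, 2 regions were left, 1 at the start (3.64 log2 CPM per kb) and 1 in intron 21 (3.71), and the sum was 5.42 CPM per 10 kb.

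The type IX genes, whose chains decorate type II fibrils, had no region within 1000 bp of the 5′ end. Col9a1 had 5 regions over 75.1 kb with the highest at 3.66 log2 CPM per kb, and Col9a2 had 2 over 15.9 kb with the highest at 3.53, in intron 2. Col9a3 had 6 regions, of which 3 lay at the starts of the neighbouring genes Mrgbp and Ogfr and held 84.8% of its summed CPM. Once these were left out, 3 regions and 3.76 CPM per 10 kb remained. Col10a1 (chr10:34389981-34397085, 7.11 kb) had 0 regions, as did 32.1% of 112 genes of similar length on chromosome 10. Altogether the 7 cartilage genes had 28 regions, of which 6 lay at starts of protein-coding genes outside the collagen family, all at Col11a2 and Col9a3. It was 0 of 108 in the fibrillar class and 0 of 81 in the network class, where the starts of partner collagen genes were not counted. The 20 kb upstream are a larger part of the windows of cartilage genes, whose median length was 27249 bp against 83003 bp (fibrillar) and 135811 bp (network). The share of such regions over all protein-coding genes was not computed.

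A region at the start is the usual sign of a promoter in use, and it was counted in 3 ways. Within 1000 bp of any annotated transcript start, 34 of the 44 collagen genes (77.3%) had a region, beside 64.1% of all protein-coding genes. Some of the starts counted so belong to short transcripts inside the gene, as in the later introns of Col1a2. Within 1000 bp of the 5′ end of the gene, 28 of 44 (63.6%, 95% Wilson interval 48.9 to 76.2) had a region, beside 59.1%. Over the 250 bases before the RefSeq start, 19 of the 35 collagen genes in the RefSeq table (54.3%) were covered at least in part, beside 58.3%. The last 2 shares lay close to those of other genes.

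At the 5′ end, regions were present in 7 of 8 fibrillar genes (all but Col27a1), in 6 of 8 network genes (all but Col4a6 and Col8a2) and in 3 of 7 cartilage genes (Col2a1, Col11a1 and Col11a2). With so few genes the 95% Wilson intervals of these shares, 52.9 to 97.8%, 40.9 to 92.9% and 15.8 to 75%, overlapped, and each held the share of all protein-coding genes, 59.1%. Before the RefSeq start, 5 of 6 fibrillar, 5 of 7 network and 1 of 5 cartilage genes were covered, and the fibrillar gene without a region was Col24a1. Col1a1, Col2a1, Col4a3, Col5a2, Col9a3, Col12a1, Col14a1, Col22a1 and Col26a1 had no entry. The median level of the 5′ regions was 4.07 log2 CPM per kb in fibrillar genes (2.30 to 5.46), 3.88 in network genes (3.00 to 4.60) and 3.50 in cartilage genes (2.81 to 3.64), against 4.77 over all protein-coding genes with such a region.

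Promoters rich in CpG are accessible in most cell types, and 11 of the 44 collagen starts (25.0%) were CpG-rich, beside 38.3% of all protein-coding genes (GC content of at least 55% and observed over expected CpG of at least 0.6 within 500 bp). Of these starts 2 were in the fibrillar class (Col5a1 and Col27a1), 3 in the network class (Col4a1, Col4a2 and Col8a2) and 1 in the cartilage class (Col2a1). All 11 had a region at some transcript start, beside 91.7% of protein-coding genes with CpG-rich starts, but at the 5′ end itself 8 of 11 had one (72.7%), beside 90.3%. Of the 33 genes with CpG-poor starts, 23 had one (69.7%), beside 46.9% of protein-coding genes of that kind, and at the 5′ end 20 of 33 did (60.6%), beside 39.8%. Col1a1, Col1a2 and Col3a1 belong to this group.

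The stretch just after the start differed more from other genes than the start itself. From 1 to 5 kb after the 5′ end, 19 of 44 collagen genes (43.2%) had the centre of a region, beside 17.7% of the protein-coding genes of at least 5 kb. Among genes of at least 20 kb the shares were 45.0% of 40 and 17.9% of 10159. By class it was 5 of 8 fibrillar, 4 of 8 network and 4 of 7 cartilage genes. From 5 to 20 kb, 23 of the 40 collagen genes that are long enough had a region (57.5%), beside 48.0% of protein-coding genes. By class it was all 7 fibrillar, 5 of 8 network and 3 of 5 cartilage genes. These distance bins were chosen after the positions had been seen.

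**Figure D4:**
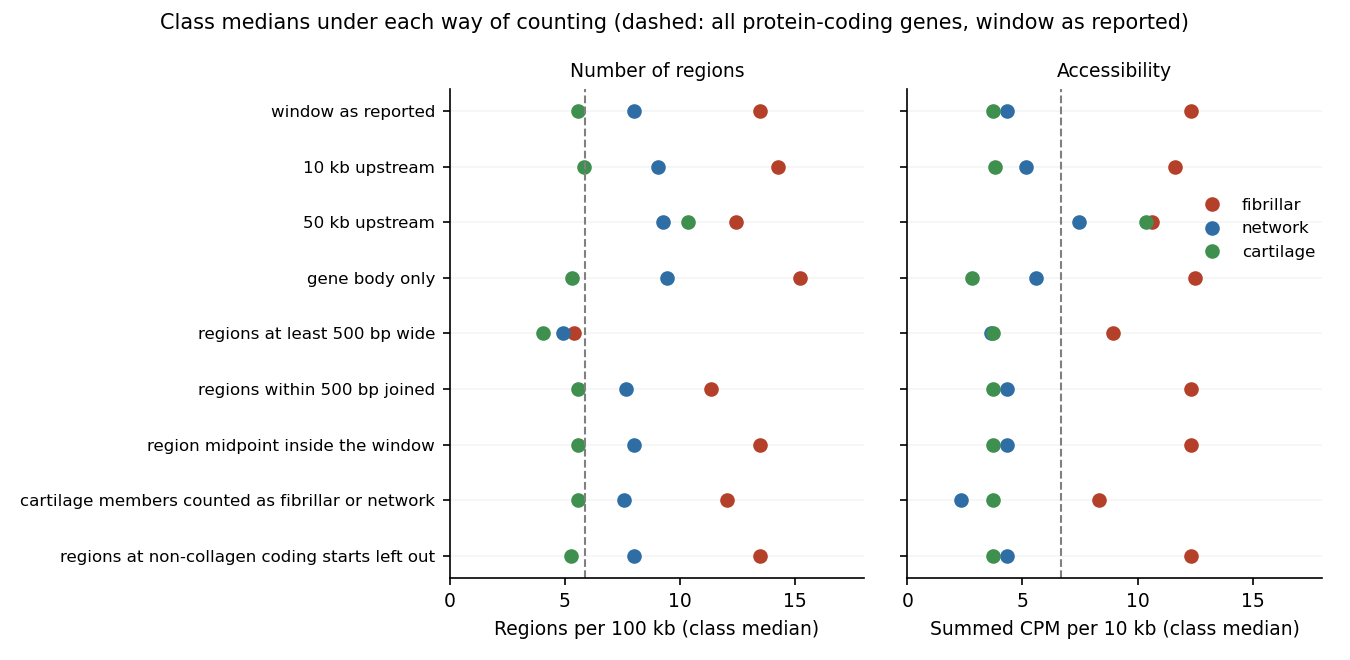
Class medians of regions per 100 kb (left) and of summed CPM per 10 kb (right) under the window as reported and 8 other ways of counting, 1 point per class, with a dashed line at the median of all protein-coding genes for the window as reported. The fibrillar class has the highest median in each row of both panels, and network and cartilage change places in some rows, among them the one with 50 kb of upstream sequence.

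The letters of known motifs were counted in the regions, since AP-1 and RUNX factors act in mesenchymal and bone cells, SOX factors in cartilage and HIF in the response to FG-4592. The AP-1 site was TGACTCA, whose other strand reads TGAGTCA, the RUNX site TGTGGT, the SOX site AACAAT, the core of the hypoxia response element (HRE) ACGTG or GCGTG, and the CCAAT box CCAAT, each on both strands. Sites were free to overlap, and a match is only a match of letters. AP-1 was present in 27.2% of the 386 collagen regions (95% Wilson interval 23.0 to 31.8) and in 21.7% of all regions of the same widths. Away from starts it was 28.7% (23.96 to 33.98) against 23.96%, where the interval reaches down to that share. By class AP-1 was in 25.0% of fibrillar regions against 21.3%, 30.9% of network regions against 22.8% and 14.3% of cartilage regions against 22.9%. Each class interval included its comparison share. No correction was made for the number of shares compared. The HRE core was present in 46.4% (41.5 to 51.4) against 44.9%, SOX in 18.4% (14.8 to 22.6) against 19.6%, and the CCAAT box in 44.3% (39.4 to 49.3) against 46.3%.

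RUNX letters were found in 41.7% of collagen regions (36.9 to 46.7) against 42.1%, and the fibrillar class was lower. In the fibrillar class 32 of 108 regions held a RUNX site (29.6%, 21.8 to 38.8) against 41.2% in all regions of the same widths. In the network class it was 44 of 81 (54.3%, 43.5 to 64.7) against 44.4%, and in the cartilage class 9 of 28 (32.1%, 17.9 to 50.7) against 44.6%, shares that both intervals include. In the central 200 bp of the regions the fibrillar share was 17.6% (11.6 to 25.8), an interval that includes the 22.2% of the whole list, and the network share was 32.1% (22.9 to 42.9), an interval that lies above it. The intervals cover counting error only, and regions of 1 gene are not independent. Of promoters, 12 of 35 collagen genes held a CCAAT box in the 250 bases before the start (34.3%), beside 35.0% of 20150 RefSeq starts.

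**Figure D5:**
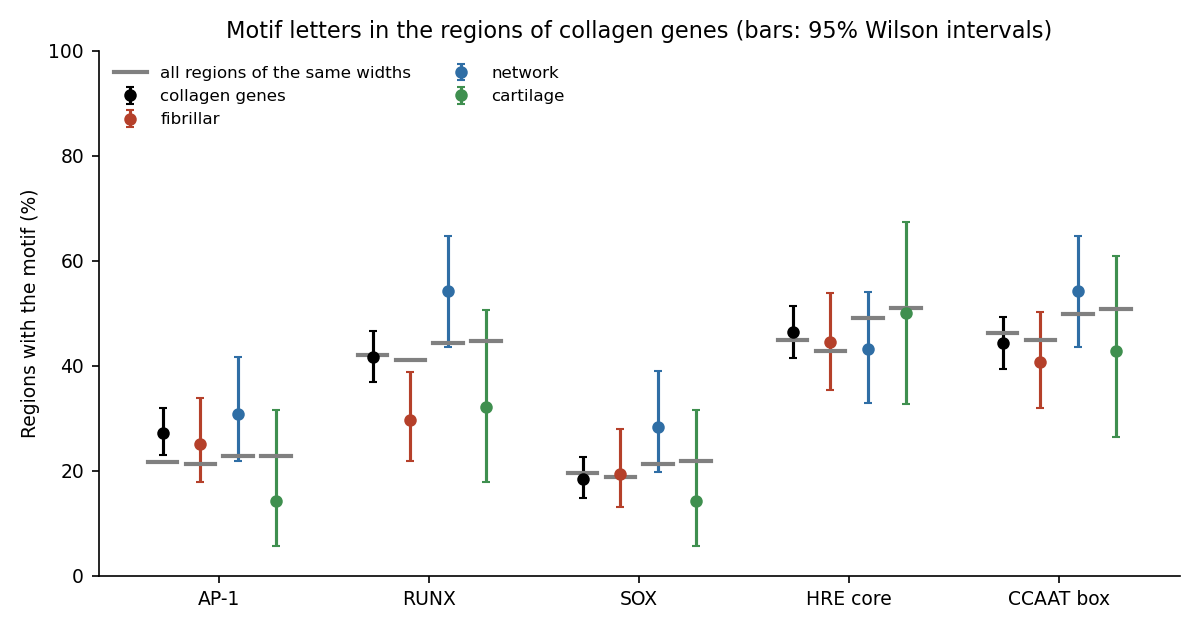
Share of regions with the letters of each motif (%, vertical axis) for all collagen regions and for the fibrillar, network and cartilage classes, with 95% Wilson intervals as bars and grey dashes at the share in all regions of the same widths. The fibrillar RUNX interval, 21.8 to 38.8, lies below its grey dash at 41.2, and the interval of AP-1 over all collagen regions lies above its dash.

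The 21 other collagen genes had 1 to 19 regions. The 6 FACIT genes, whose products attach to fibrils, had 4 to 11 regions, with Col12a1 at 11, Col14a1 at 10, Col16a1 at 9, Col22a1 at 8, Col20a1 at 5 and Col19a1 at 4. Col12a1 held the fifth highest site away from starts, 5.29 log2 CPM per kb in intron 58. The highest region of Col20a1, 5.00, lay at the start of Arfgap1.

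The type VI genes, whose chains form beaded microfibrils, fell into 2 sets by their number of regions. Col6a1, Col6a2 and Col6a3, which encode the classical heterotrimer, had 8, 7 and 13 regions, more than 97.3%, 87.8% and 92.1% of similar genes. Among regions within 1000 bp of the 5′ end, the highest stood at 4.67, 5.13 and 4.29 log2 CPM per kb. In Col6a1 and Col6a2 these were the highest of the gene, whereas Col6a3 had higher regions further in. Col6a4, Col6a5 and Col6a6, neighbours on chromosome 9, had 2 regions each, more than 11.8%, 10.8% and 12.5% of similar genes, and no region above 3.56. The highest site of Col6a3 away from starts, 5.32 log2 CPM per kb in intron 1 (chr1:90834763-90835224), held 2 AP-1 sites.

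The multiplexins Col15a1 and Col18a1, which belong to basement membrane zones, had 19 and 18 regions, more than 95.7% and 93.5% of similar genes. A site of 1263 bp in intron 28 of Col15a1 (chr4:47293483-47294745) stood at 5.45 log2 CPM per kb, the second highest away from starts. The membrane-spanning collagens Col13a1, Col17a1, Col23a1 and Col25a1 had 9, 5, 15 and 1 regions. Col25a1, the longest of the family at 468.4 kb, had the lowest density after Col10a1, 0.205 regions per 100 kb, with its region in the gene body at 2.98 log2 CPM per kb. Col7a1, the chain of anchoring fibrils, had 3 regions, Col26a1 9 and Col28a1 9, and the highest region of Col28a1 (5.63) lay at the start of Mios.

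The genes that build, process and bind collagen were read from fixed lists, by whether they had a region at a transcript start (64.1% of all protein-coding genes). Of 17 genes for chain folding and modification, 16 did, among them Serpinh1, the collagen chaperone (5.60 log2 CPM per kb at the start), P4ha1, a subunit of the collagen prolyl hydroxylase (5.91), Fkbp10 (5.98) and Plod2, a lysyl hydroxylase (5.15). P4ha3 at 3.62 and Colgalt2 at 3.63 were the lowest of the 16, below the median of 4.76 over all protein-coding genes with a start region. P4hb, the partner subunit of the prolyl hydroxylase, had 0 regions in the list. Of 11 genes for processing and crosslinking, 9 did, with Bmp1, which removes the C-terminal propeptide, at 5.85 and Lox, which starts crosslinking, at 5.15, and without Adamts3 and Loxl2. All 7 receptor genes had a start region, with the integrin subunit Itgb1 at 5.94 and Ddr2, a receptor tyrosine kinase for fibrillar collagen, at 4.54. Among the collagen-binding integrin alpha subunits, Itga1 stood at 5.19, and Itga11, Itga2 and Itga10 at 2.99, 3.28 and 3.69.

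Regulators and markers of the lineages were read in the same way. All 5 regulators had a start region, with Sox9 at 5.38, Runx2 at 4.60, Sp7 at 3.88, Sox5 at 3.27 and Sox6 at 3.23 log2 CPM per kb. Of 10 osteogenic marker genes, 7 had a start region, as did 64.1% of all protein-coding genes. Of the osteocyte genes on the list, Dmp1 had one, at 3.93 log2 CPM per kb. Phex, Mepe and Sost did not, although each had 3 to 5 regions in its window. Of 7 chondrocyte marker genes, 4 had a start region, namely Sox9 and, at 4.92, 4.45 and 3.31 log2 CPM per kb, Comp, Matn3 and Cnmd. Acan, Matn1 and Hapln1, with 1 region each, did not. Of 8 marker genes of blood, endothelial, muscle, nerve, liver and epithelial cells, 2 had one (Spi1 and Pecam1), and Myod1, Alb and Epcam had 0 regions. Whether cells of other lineages contributed to any collagen region was not tested.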

How the data were processed

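ATAC-seq libraries of 11 MPC2 cultures were processed by the authors, who trimmed reads with Trim Galore, aligned them to mm10 with Bowtie2, removed duplicates with Picard 2.17.8, called peaks with MACS2 2.2.7.1, merged them across samples, removed blacklisted regions, counted cuts with pyDNase, filtered and normalised by TMM, and used edgeR 3.24.3 (versions from the submitters' processing notes). A library that the authors removed was not analysed here, and whether read ends were moved to the centre of the Tn5 cut is not given in the sources used here. The deposited list holds 94963 regions with 1 value each, read as average log2 CPM over all samples because 460 values were below 0. There is no value per sample, so no group was compared and no test was run.

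Genes came from GENCODE vM21, and 0 regions ran past a chromosome end of GRCm38. Regions overlapping a gene from 20 kb upstream to its end were assigned to it. Levels were compared as log2 CPM per kb of region width, and counts with protein-coding genes of a length within 20%. Motif shares were compared with all regions in the same 20 width bins. Every gene of the fibrillar, network and cartilage classes was named, and each other gene by its number of regions. Named sites were the start and highest regions of Col1a1 and Col1a2, the 5 highest away from starts and those shared by 2 members; further sites named were chosen after their values were seen. The members, classes and lists were chosen with earlier results of these data known. Some promoter sequences are not reported here. Steps were tested on simulated data. Python 3.11.15, numpy 2.4.6, scipy 1.17.1 and matplotlib 3.10.9 were used.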

Additional observations from a re-analysis of the deposited data

How the results depend on the processing

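The counts of regions and of genes with a region, the comparison with genes of similar length and the class medians were recomputed with 10 or 50 kb upstream, the gene body only, regions at least 500 bp wide, regions within 500 bp joined and region midpoints, and for the classes with Col2a1, Col11a1 and Col11a2 counted as fibrillar and Col10a1 as network. Similar length was also taken as within 10%, starts within a narrower or wider distance, as the 5′ end alone or with regions at least 500 bp wide, and motifs in the central 200 bp or away from starts. Leaving out regions at starts of protein-coding genes outside the collagen family was added after the data had been seen. Of 108 alternatives, 93 stayed within 1.5 times the reported value, or for motifs within its interval, and 3 of the other 15 are levels not divided by width, whose unit differs. In 28 class orders, the fibrillar median was highest in 28 and the network median above the cartilage median in 22. The 28 include the window as reported, and some settings only repeated its values. Taking midpoints changed no class median, and joining regions left the summed medians unchanged. Leaving out regions at starts outside the family could not change the fibrillar or network values, since 0 of their regions lay there. With regions at least 500 bp wide, the collagen regions numbered 170, and the fibrillar and network classes had 5.42 and 4.93 regions per 100 kb. With 50 kb upstream, cartilage genes reached 10.4 regions per 100 kb and 10.4 CPM per 10 kb, beside 12.4 and 10.6 in fibrillar genes. The summed medians of these 2 classes were then nearly equal, and network genes had 7.44 CPM per 10 kb. With the cartilage members moved, the network median was 2.34 CPM per 10 kb. Without division by width, the medians of the highest regions were 5.28 (fibrillar), 3.56 (network) and 3.83 (cartilage) log2 CPM. In the central 200 bp, shares were 16.1% for AP-1, 23.8% for RUNX, 6.48% for SOX, 23.3% for the HRE core and 21.8% for the CCAAT box, since a shorter stretch holds fewer sites. No paired analysis was possible because only pooled values of the cultures were analysed. Depth per sample was unknown, and intervals cover counting error only.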
